A study of Mus musculus with 24 samples.

Results

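The 10 genes described here encode transcription factors, or partners of them, that are known from endothelium and belong to neither the ETS nor the SOX family: Tal1, Lyl1, Lmo2, Gata2, Hhex, Bcl6b, Mecom, Foxc2, Klf2 and Klf4. They were chosen by name from the 35727 genes of the count table, with earlier results of these data known. All 10 passed the filter on low counts, as did 14804 genes in all. The data are bulk RNA sequencing of mouse heart fibroblasts grown in EGM2, an endothelial growth medium, in which the conditions SEG, Erg, Sox17 and control were harvested at day 7 and day 3, with 3 libraries in each of the 8 groups. The factor conditions are called aiECs by the submitters and the control cells fibroblasts. The labels do not spell out SEG, and the strain and age of the mice, how factors were delivered and whether libraries came from separate cultures or animals are not stated in the sources used here. The p-values therefore cover only the variation among the libraries at hand, which can be technical. The question the design puts is how far each condition takes on endothelial expression.

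Endothelium and blood arise close together in the embryo and share regulators. TAL1 and its relative LYL1 are basic helix-loop-helix proteins that bind DNA with E proteins, and LMO2, which does not bind DNA itself, bridges them to GATA factors such as GATA2. HHEX is a homeobox protein of early endothelium, BCL6B a zinc-finger repressor related to BCL6, MECOM (also known as EVI1) a zinc-finger factor of blood stem cells and arterial endothelium, and FOXC2 a forkhead factor of lymphatic valves that mesenchyme also uses. KLF2 and KLF4 are zinc-finger factors that flow induces in endothelium through the MEKK3, MEK5 and ERK5 kinases and MEF2 factors, and fibroblasts express both as well.

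The 24 libraries held between 18794422 and 44586227 counts each. The factors the conditions are named for followed the labels: Erg averaged 961 ± 109 CPM in SEG and 5138 ± 750.5 CPM in the Erg condition at day 7, and Sox17 averaged 699 ± 206 CPM in SEG and 1080.0 ± 402 CPM in the Sox17 condition (SD, n = 3), with at most 2 counts of Erg and none of Sox17 in any control library. CPM is counts scaled to library size, as edgeR gives them. Of 17 endothelial core markers, 14 rose and 1 fell in SEG against control at day 7. In Erg 12 rose and 1 fell, and in Sox17 10 rose and 3 fell at that day. At day 3, 15 rose and 1 fell in SEG, 12 rose and 1 fell in Erg, and 8 rose and 3 fell in Sox17. The list holds Erg and Sox17 themselves, whose rise the conditions fix, and Cldn5 and Sox17 had 0 counts in control at both days. All 12 fibroblast markers had counts in every group, and 8 fell and 2 rose in SEG, 10 fell in Erg, and 10 fell and 1 rose in Sox17 at day 7. They summed to 29960 to 35280 CPM in SEG, 16220 to 17540 CPM in Erg, 16490 to 20160 CPM in Sox17 and 32680 to 34830 CPM in control. Of 8 tested smooth muscle and pericyte markers, 7 rose and 1 fell in SEG, 3 rose and 1 fell in Erg, and 5 rose and 1 fell in Sox17 at day 7. That list of 9 summed to 1528 to 1932 CPM in SEG, 484.5 to 538.4 CPM in Erg, 2535 to 4444 CPM in Sox17 and 93.3 to 107 CPM in control at day 7. At day 3 its sums were 1061 to 1398 CPM in SEG, 552.9 to 594.3 CPM in Erg, 1858 to 2728 CPM in Sox17 and 488.1 to 559.9 CPM in control, with Kcnj8 at 0 counts in Sox17 at both days and in SEG at day 3. The part of such cells in the values below was not tested. Of all genes tested, 44.3%, 48.5% and 54.5% were called in SEG, Erg and Sox17 against control at day 7. At day 3 the shares were 40.2%, 46.1% and 40.4%, and the counts of each list are to be set beside them. Replicate 1 of Sox17 and replicate 1 of SEG at day 7 stood apart: ribosomal protein genes took 7.76% and 5.4% of their counts, against 3.14% to 4.96% in the other libraries. Where leaving out both changed a call, turned a sign or moved a called change by over 1.5 times, the value without them is given. In bulk samples, fewer expressing cells and less RNA per cell cannot be told apart.

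The promoters of Hhex and Mecom are shown first, out of 7 members with an entry in RefSeq (build GRCm38.p6, which is mm10). These are the 250 bases before the start of Hhex, which was higher in every factor condition, and before the starts that RefSeq gave for Mecom, which was high in SEG. Windows of Tal1, Lyl1, Gata2, Klf2 and Klf4 were searched and are not printed. The Hhex gene span given below begins at base 37434810, so the end of the Hhex window lies inside that span. The Mecom gene span given below reaches further upstream, to base 30548008, and no window was used there. Capitals mark matches, on either strand, of 4 short motifs. For ETS factors the letters were AGGAAG, and for proteins of the SOX family CATTGT. For GATA factors the letters searched were AGATAA, while for the KLF family the shorter CACCC was used. These are fixed strings of letters, and other forms of the sites that each family binds were not searched.
Hhex, chr19:37434591-37434840, plus strand: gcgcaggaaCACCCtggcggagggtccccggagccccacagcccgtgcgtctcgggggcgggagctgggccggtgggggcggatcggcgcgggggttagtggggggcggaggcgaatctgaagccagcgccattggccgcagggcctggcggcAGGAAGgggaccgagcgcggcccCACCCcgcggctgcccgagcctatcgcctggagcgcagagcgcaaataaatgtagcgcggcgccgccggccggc
Mecom, upstream start, chr3:30509760-30510009, minus strand: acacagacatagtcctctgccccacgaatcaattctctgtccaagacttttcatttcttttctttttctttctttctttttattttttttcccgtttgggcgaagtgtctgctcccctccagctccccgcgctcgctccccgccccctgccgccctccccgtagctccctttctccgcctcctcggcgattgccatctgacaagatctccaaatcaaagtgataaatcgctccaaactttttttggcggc
Mecom, downstream start, chr3:30013205-30013454, minus strand: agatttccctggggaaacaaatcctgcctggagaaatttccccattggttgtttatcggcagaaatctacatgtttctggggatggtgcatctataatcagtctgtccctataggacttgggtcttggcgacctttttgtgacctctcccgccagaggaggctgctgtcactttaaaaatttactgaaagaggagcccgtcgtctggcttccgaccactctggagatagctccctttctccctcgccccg
The Hhex window held 1 match of the ETS letters, starting 97 bases before the start, and 2 of the KLF letters. Neither Mecom window held any of these exact letters. Over 32851 mouse promoter windows of the same length, 29.5% held the ETS letters, 10.7% the SOX letters, 9.99% the GATA letters and 52.0% the KLF letters. Of the 10 windows RefSeq gave for 7 members, the Hhex window alone held the ETS letters. Of those of Tal1, 1 held the GATA letters, and no window held the SOX letters. No window was used for Lmo2, Bcl6b and Foxc2, and no matches overlapped. A match is a description of the letters only.

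**Figure D1:**
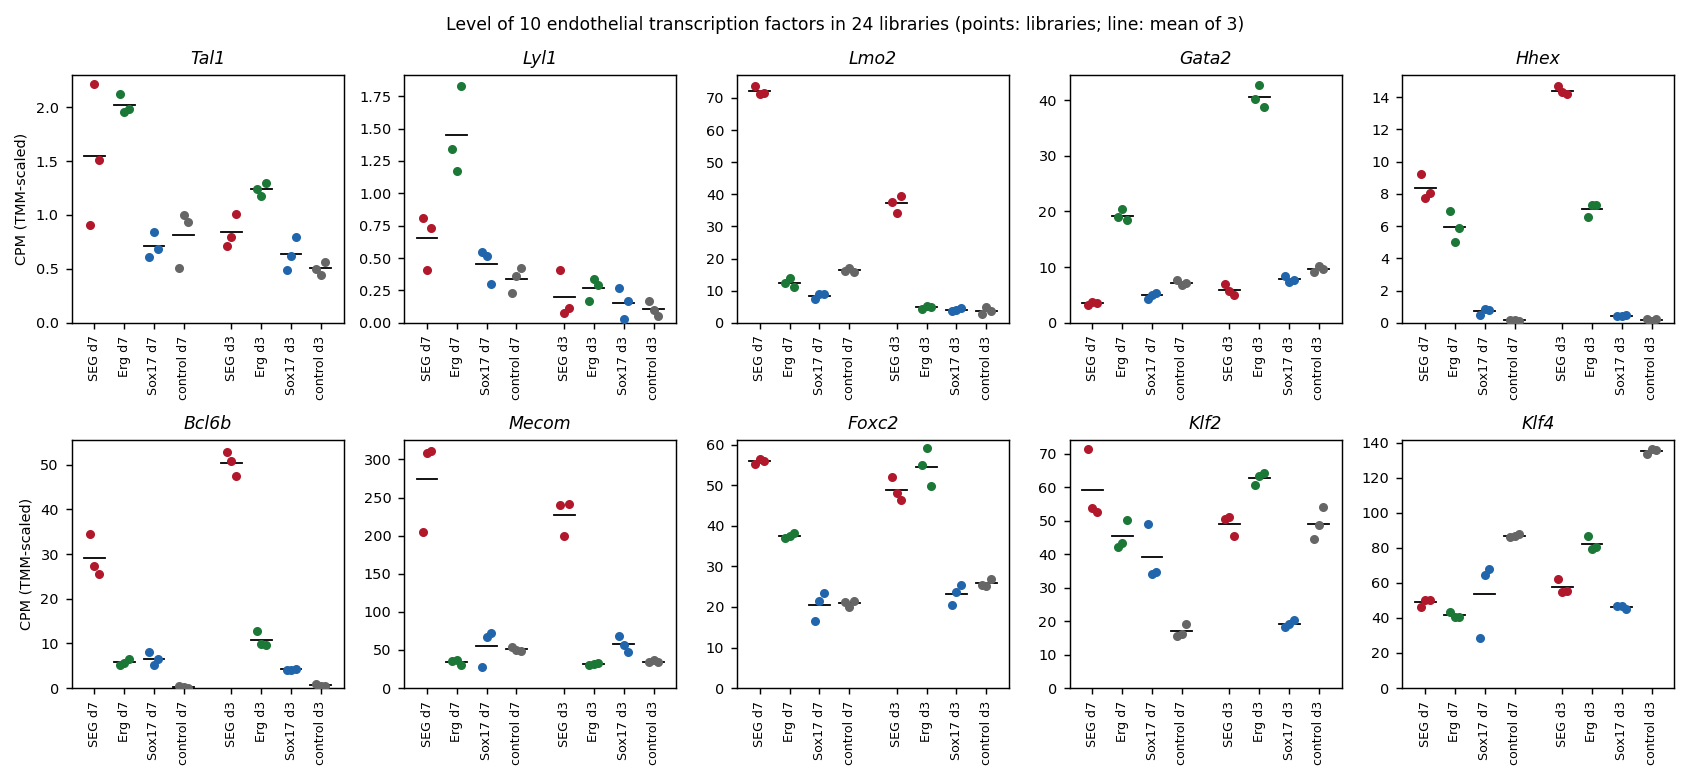
CPM of each gene (vertical axis, from 0) in each library (points) with the mean of 3 libraries (line), by condition at day 7 (left) and day 3 (right) of each panel. Lmo2 and Mecom were highest in the 6 SEG libraries, Gata2 in the 6 Erg libraries, and Klf4 was highest in the 3 control libraries of day 3.

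Among the blood-linked factors, Lmo2 rose in SEG at both days and fell in Sox17 and Erg at day 7. At day 7, Lmo2 (chr2:103957986-103981878, plus strand, mm10, ENSMUSG00000032698) stood at 73.7, 71.2 and 71.4 CPM in SEG, at 12.2, 14.1 and 11.2 CPM in Erg, at 7.42, 8.84 and 8.99 CPM in Sox17, and at 16.2, 17.0 and 15.8 CPM in control. The day-3 values of Lmo2 stood at 37.6, 34.3 and 39.6 CPM in SEG, at 4.29, 5.27 and 4.82 CPM in Erg, at 3.76, 3.88 and 4.63 CPM in Sox17, and at 2.79, 4.91 and 3.53 CPM in control. Every SEG library lay above every library of the other conditions, also across the days, while at day 7 the Erg and Sox17 libraries all lay below control. The log2 change of SEG against control was 2.14 ± 0.14 (SE) at day 7 (adjusted p = 8.89e-11, edgeR quasi-likelihood test) and 3.30 ± 0.15 at day 3 (adjusted p = 7.69e-13). Against control at day 7, Lmo2 fell by 0.96 in Sox17 (adjusted p = 7.51e-06). The Lmo2 change in Erg was smaller, at −0.38 (adjusted p = 0.0266), and its call was lost without control replicate 1 (−0.39, adjusted p = 0.053) or 2 (−0.36, 0.0775), or Erg replicate 1 (−0.37, 0.0706) or 3 (−0.31, 0.121), and without the filter on low counts (−0.34, 0.0778). At day 3 neither Lmo2 in Erg (0.35, adjusted p = 0.0698) nor in Sox17 (0.12, adjusted p = 0.601) passed the test. The Erg value was called without control replicate 2 (0.60, 0.0026), without Erg replicate 1 (0.43, 0.0482) and by DESeq2 (0.38, 0.0387), and the Sox17 value was −0.05 without control replicate 1.

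Gata2 rose in Erg and fell in SEG and Sox17 at both days. At day 7, Gata2 (chr6:88193891-88207032, plus strand, ENSMUSG00000015053) stood at 3.25, 3.77 and 3.54 CPM in SEG, at 18.9, 20.4 and 18.4 CPM in Erg, at 4.31, 5.02 and 5.40 CPM in Sox17, and at 7.71, 6.77 and 7.19 CPM in control. On day 3, Gata2 was measured at 6.95, 5.77 and 5.05 CPM in SEG, at 40.3, 42.6 and 38.7 CPM in Erg, at 8.35, 7.33 and 7.75 CPM in Sox17, and at 9.21, 10.1 and 9.72 CPM in control. All Erg libraries were above control, and all SEG and Sox17 libraries below it, within each day. Against control, Gata2 rose in Erg by a log2 change of 1.41 ± 0.11 at day 7 (adjusted p = 2.26e-09) and 2.06 ± 0.11 at day 3 (9.41e-12), and fell in SEG by 1.03 (3.64e-07) and 0.71 (2.94e-05). In Sox17 Gata2 fell by 0.56 at day 7 (adjusted p = 0.000293). The Gata2 call of day 3 in Sox17 (−0.31, adjusted p = 0.0291) was lost without control replicate 2 (−0.28, 0.0975) or 3 (−0.31, 0.0676), or Sox17 replicate 2 (−0.265, 0.113) or 3 (−0.30, 0.0703), and without the filter on low counts (−0.28, 0.0956). Of 9 mast cell and basophil markers, a lineage that uses GATA2, 4 were tested, of which 3 rose and 1 fell in Erg at day 3, and the list summed to 12.6 to 16.9 CPM in Erg and 2.05 to 2.85 CPM in control at day 3, with Ms4a2, Tpsb2 and Fcer1a at 0 counts in both. At day 7, where 2 of the 4 rose and 2 fell in Erg, 2 fell in SEG and all 4 fell in Sox17, the list summed to 1.865 to 2.485 CPM in SEG, 6.84 to 8.23 CPM in Erg, 0.25 to 0.655 CPM in Sox17 and 4.955 to 6.22 CPM in control. At day 3, 1 rose and 1 fell in SEG and 2 fell in Sox17, with sums of 2.68 to 4.04 CPM in SEG and 0.706 to 0.730 CPM in Sox17. The part of such cells in the Gata2 changes was not tested.

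Tal1 and Lyl1 were low in every group. Tal1 (chr4:115056426-115071755, plus strand, ENSMUSG00000028717) ran from 0.909 to 2.215 CPM in SEG, from 1.96 to 2.125 CPM in Erg, from 0.613 to 0.846 CPM in Sox17 and from 0.510 to 1.0 CPM in control at day 7, where SEG replicate 1 lay among the control libraries. On day 3, Tal1 ran from 0.716 to 1.01 CPM in SEG, from 1.17 to 1.30 CPM in Erg, from 0.487 to 0.800 CPM in Sox17 and from 0.446 to 0.563 CPM in control. Against control, Tal1 rose in Erg by a log2 change of 1.29 ± 0.29 at day 7 (adjusted p = 0.000965) and 1.29 ± 0.32 at day 3 (0.00217). In SEG the Tal1 change was 0.91 ± 0.29 at day 7 (adjusted p = 0.015), and was not called without control replicate 1 (0.68, 0.0833) or SEG replicate 2 (0.56, 0.144), or with these groups alone in the fit (0.91, 0.0933). That day-7 change was 1.20 (adjusted p = 0.00099) without both libraries that stood apart. In SEG at day 3, Tal1 did not pass (0.74, adjusted p = 0.078).

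Lyl1 (chr8:84701457-84704715, plus strand, ENSMUSG00000034041) had 17, 10 and 18 counts in the SEG libraries, 29, 24 and 60 in Erg, 24, 19 and 8 in Sox17 and 4, 8 and 10 in control at day 7. The day-3 libraries had 8, 2 and 3 Lyl1 counts in SEG, 3, 7 and 10 in Erg, 10, 1 and 4 in Sox17 and 3, 2 and 1 in control. Its exons overlap those of Nfix on the opposite strand, and the strand setting of the counting is not given in the sources used here, so its values are uncertain. The 1 call against control was in Erg at day 7, where Lyl1 rose by a log2 change of 2.07 ± 0.49 (adjusted p = 0.00173), while Nfix averaged 259 ± 21.2 CPM in Erg and 524 ± 20.2 CPM in control (SD, n = 3). Lyl1 did not pass in SEG (0.91, adjusted p = 0.172) or Sox17 (0.43, 0.501) at day 7. At day 3 it passed in none of SEG (0.79, adjusted p = 0.452), Erg (1.34, 0.137) and Sox17 (0.57, 0.598), values that rest on 1 to 3 counts in each control library. Beside the Erg call, 17 of 18 macrophage markers rose and 1 fell in Erg at day 7 (48.5% of all genes called). Their sum was 936 to 971 CPM in Erg against 188 to 239 CPM in control, with none at 0 counts. Over the 24 libraries, the genes whose log2 CPM was most like Lyl1 were C1qa (Pearson r = 0.897), C1qc (0.888) and Ctss (0.888), all of which macrophages express. The points share groups and library depth, and the part of macrophages in the Lyl1 and Tal1 values was not tested.

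**Figure D2:**
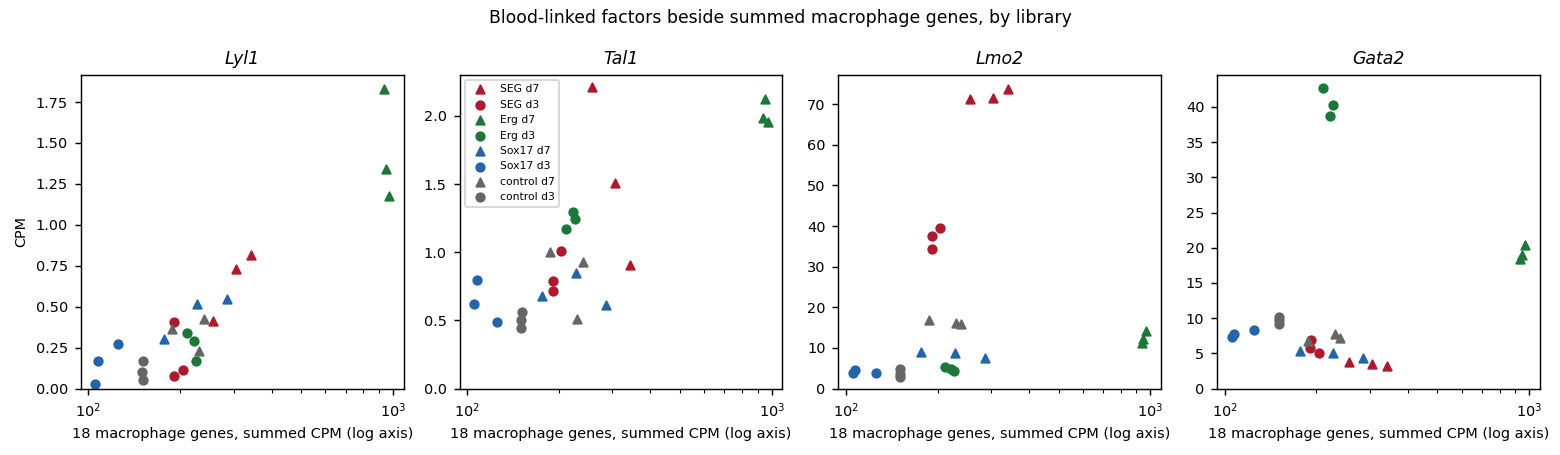
CPM of 4 blood-linked factors (vertical axis, from 0) against the summed CPM of 18 macrophage genes (horizontal log axis), 1 point per library. The 3 Erg libraries of day 7 stand at 936 to 971 summed CPM and have the highest Lyl1, whereas Lmo2 is highest in SEG, at 191 to 342 summed CPM.

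Hhex and Bcl6b were higher than control in all 3 conditions at both days. Their changes were the largest of the 10 genes in SEG and Erg at both days and in Sox17 at day 7, whereas in Sox17 at day 3 Klf4 and Klf2 changed more than Hhex did. At day 7, Hhex (chr19:37434810-37440731, plus strand, ENSMUSG00000024986) stood at 9.23, 7.75 and 8.07 CPM in SEG, at 6.93, 4.99 and 5.88 CPM in Erg, at 0.499, 0.873 and 0.794 CPM in Sox17, and at 0.170, 0.182 and 0.127 CPM in control. Levels of Hhex at day 3 stood at 14.7, 14.3 and 14.2 CPM in SEG, at 6.55, 7.32 and 7.30 CPM in Erg, at 0.433, 0.441 and 0.463 CPM in Sox17, and at 0.223, 0.0991 and 0.256 CPM in control. Within each day the order SEG, Erg, Sox17, control held with no overlap of libraries. Against control, Hhex rose by log2 changes of 5.68 ± 0.24 in SEG, 5.19 ± 0.24 in Erg and 2.13 ± 0.29 in Sox17 at day 7 (adjusted p = 1.17e-13, 1.7e-12 and 4.09e-06). At day 3 the Hhex changes were 6.20 ± 0.24, 5.17 ± 0.24 and 1.20 ± 0.31 (adjusted p = 3.7e-14, 1.07e-12 and 0.021). The Sox17 call of day 3 was lost without control replicate 2 (0.87, adjusted p = 0.166). Control held 2 to 5 Hhex counts per library, so these changes depend on few control counts and their SEs can be too small.

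At day 7, Bcl6b (chr11:70224128-70229798, minus strand, ENSMUSG00000000317) stood at 34.5, 27.3 and 25.6 CPM in SEG, at 5.22, 5.67 and 6.49 CPM in Erg, at 8.06, 5.21 and 6.54 CPM in Sox17, and at 0.567, 0.227 and 0.0846 CPM in control. The day-3 libraries held Bcl6b at 52.9, 50.8 and 47.4 CPM in SEG, at 12.9, 9.81 and 9.66 CPM in Erg, at 4.14, 4.15 and 4.25 CPM in Sox17, and at 0.949, 0.495 and 0.461 CPM in control. SEG was highest and control lowest at both days, and the Erg and Sox17 libraries overlapped at day 7 but not at day 3. Bcl6b rose by log2 changes of 6.72 ± 0.32 in SEG, 4.39 ± 0.33 in Erg and 4.58 ± 0.33 in Sox17 at day 7 (adjusted p = 7.2e-13, 1.56e-09 and 3.82e-10). The day-3 changes were 6.32 ± 0.29, 4.09 ± 0.29 and 2.73 ± 0.30 (adjusted p = 6.93e-13, 5.54e-10 and 2.35e-07). Without both libraries that stood apart, the day-7 Bcl6b changes were 6.62 in SEG and 4.44 in Sox17 (adjusted p = 4.18e-16 and 1.29e-11). Control held 2 to 17 Bcl6b counts per library.

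Mecom was raised several-fold in SEG. At day 7, Mecom (chr3:29951296-30548008, minus strand, ENSMUSG00000027684) stood at 204.7, 308 and 312 CPM in SEG, at 35.7, 36.9 and 29.6 CPM in Erg, at 27.1, 67.0 and 71.6 CPM in Sox17, and at 54.0, 50.1 and 49.1 CPM in control. At the earlier day, Mecom stood at 239.8, 199 and 241 CPM in SEG, at 30.3, 31.3 and 33.5 CPM in Erg, at 68.8, 56.8 and 47.3 CPM in Sox17, and at 33.6, 36.4 and 34.1 CPM in control. Every SEG library exceeded every other library, and replicate 1 of Sox17 at day 7, which stood apart, was the lowest of all 24. In SEG, Mecom rose by log2 changes of 2.43 ± 0.25 at day 7 (adjusted p = 1.04e-07) and 2.71 ± 0.26 at day 3 (3.49e-08), and the day-7 change was 2.64 without both libraries that stood apart. The Sox17 change at day 7 was 0.11 ± 0.24 (adjusted p = 0.717). Mecom was called higher there once Sox17 replicate 1 was left out (0.44, adjusted p = 0.0185) or both such libraries (0.475, 0.00079), and the sign turned without Sox17 replicate 2 (−0.01, 0.974) or 3 (−0.08, 0.799). The Sox17 call of day 3 (0.73, adjusted p = 0.0205) was lost without control replicate 1 (0.71, 0.0613) or 3 (0.72, 0.0578), or Sox17 replicate 1 (0.58, 0.1). In Erg, Mecom did not pass at day 7 (−0.59, adjusted p = 0.0536; −0.54 with adjusted p = 0.000323 when these groups alone were fitted) or day 3 (−0.13, 0.705). An antisense gene, Mecomos, overlaps its exons and was not analysed here.

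Foxc2 was higher in SEG and Erg. Foxc2 (chr8:121116171-121118895, plus strand, ENSMUSG00000046714) averaged 55.9 ± 0.685 CPM in SEG, 37.5 ± 0.603 CPM in Erg, 20.4 ± 3.52 CPM in Sox17 and 20.95 ± 0.748 CPM in control at day 7. At day 3 Foxc2 averaged 48.8 ± 2.95 CPM in SEG, 54.6 ± 4.67 CPM in Erg, 23.25 ± 2.465 CPM in Sox17 and 25.8 ± 0.894 CPM in control (SD, n = 3 each). SEG and Erg libraries lay above all Sox17 and control libraries of their day. Foxc2 rose in SEG by log2 changes of 1.41 ± 0.11 at day 7 (adjusted p = 7.75e-10) and 0.92 ± 0.10 at day 3 (4.85e-07). In Erg, Foxc2 rose by 0.84 ± 0.10 (adjusted p = 1.53e-06) and 1.08 ± 0.10 (4.9e-08). Sox17 did not pass at day 7 (−0.04, adjusted p = 0.757; 0.09 without its replicate 1) or day 3 (−0.15, adjusted p = 0.271).

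Klf2 was higher than control in all 3 conditions at day 7, and at day 3 it was lower in Sox17. At day 7, Klf2 (chr8:72319033-72321656, plus strand, ENSMUSG00000055148) stood at 71.3, 53.7 and 52.7 CPM in SEG, at 42.3, 43.3 and 50.2 CPM in Erg, at 48.85, 34.1 and 34.5 CPM in Sox17, and at 15.6, 16.2 and 19.1 CPM in control. Day-3 levels of Klf2 stood at 50.6, 51.0 and 45.5 CPM in SEG, at 60.7, 63.5 and 64.3 CPM in Erg, at 18.3, 19.04 and 20.4 CPM in Sox17, and at 44.6, 48.55 and 54.0 CPM in control. All treated libraries lay above control at day 7, whereas at day 3 SEG overlapped control, Erg lay above it and Sox17 below it. From day 3 to day 7, Klf2 fell by 1.53 in control and 0.47 in Erg and rose by 1.03 in Sox17, and SEG did not pass (0.27). Against control at day 7, Klf2 was higher by log2 changes of 1.80 ± 0.14 in SEG, 1.42 ± 0.14 in Erg and 1.21 ± 0.14 in Sox17 (adjusted p = 1.6e-09, 6.58e-08 and 3.83e-07). Replicate 1, which stood apart, was the highest of its group in SEG and Sox17, and without both such libraries the Klf2 changes were 1.68 and 1.05 (adjusted p = 3.75e-13 and 1.57e-09). At day 3 it fell by 1.35 in Sox17 (adjusted p = 1.02e-07), while SEG did not pass (49.0 ± 3.09 CPM in SEG and 49.0 ± 4.72 CPM in control, adjusted p = 1). The Erg change of day 3 (0.36, adjusted p = 0.0367) was lost in 5 of 6 fits that left out a library: without control replicate 1 (0.29, 0.143) or 2 (0.35, 0.0873), or Erg replicate 1 (0.39, 0.0561), 2 (0.35, 0.0815) or 3 (0.34, 0.0915).

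Klf4 was lower than control in all 3 conditions at both days. At day 7, Klf4 (chr4:55527143-55532466, minus strand, ENSMUSG00000003032) stood at 46.1, 50.4 and 50.3 CPM in SEG, at 43.5, 40.3 and 40.4 CPM in Erg, at 28.6, 64.6 and 67.75 CPM in Sox17, and at 85.9, 87.0 and 87.9 CPM in control. On average at day 3, Klf4 stood at 57.5 ± 3.89 CPM in SEG, 82.2 ± 4.15 CPM in Erg, 46.2 ± 0.905 CPM in Sox17 and 135.3 ± 1.435 CPM in control (SD, n = 3). No treated library reached its day's control. Klf4 fell at day 7 by 0.83 in SEG, 1.07 in Erg and 0.70 in Sox17 on the log2 scale (adjusted p = 0.00107, 9.2e-05 and 0.00357). At day 3 it fell by 1.23, 0.72 and 1.55 (adjusted p = 1.98e-05, 0.00332 and 1.07e-06). Without both libraries that stood apart, the Klf4 change in Sox17 at day 7 was −0.36 (adjusted p = 6.21e-06). With the groups of the comparison alone in the fit, it was not called (−0.71, adjusted p = 0.144).

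Beside Klf2 and Klf4, which many stimuli induce, 15 immediate-early genes summed to 1914 to 2096 CPM in SEG, 1405 to 1517 CPM in Erg, 1931 to 2208 CPM in Sox17 and 1414 to 1582 CPM in control at day 7. Their sums at day 3 were 1132 to 1225 CPM in SEG, 1207 to 1285 CPM in Erg, 965 to 1013 CPM in Sox17 and 1145 to 1161 CPM in control. At day 7 against control, 8 rose and 1 fell in SEG, 5 rose and 8 fell in Erg, and 9 rose and 2 fell in Sox17. The shares of all genes called were 44.3%, 48.5% and 54.5%. The part of the immediate-early genes in the Klf2 and Klf4 values was not tested.

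The counts of the 10 genes called against control follow, each beside the share of all genes tested that was called. As the genes were chosen with earlier results of these data known, the counts only describe them. In SEG at day 7, 7 were higher and 2 lower (44.3% of all genes called, 22.5% higher and 21.8% lower), and at day 3, 5 were higher and 2 lower (40.2% of all genes called, 20% higher and 20.2% lower). In Erg at day 7, 7 were higher and 2 lower (48.5% of all genes called, 23.7% higher and 24.8% lower), and at day 3, 6 were higher and 1 lower (46.1% of all genes called, 22.6% higher and 23.5% lower). In Sox17 at day 7, 3 were higher and 3 lower (54.5% of all genes called, 29.5% higher and 25% lower), so that the share of the 10 genes called, 60.0%, was near that of all genes. At day 3 there were again 3 higher and 3 lower in Sox17 (40.4% of all genes called, 20.8% higher and 19.6% lower). The median log2 change of the 10 was 1.61, 1.35 and 0.03 in SEG, Erg and Sox17 at day 7, and 0.86, 1.19 and 0.21 at day 3, against medians over all genes between −0.02 and 0.05. These comparisons share the control libraries of their day. Tested for a change beyond 1.5-fold, the calls that ended were Tal1 and Klf4 in SEG at day 7, Gata2 in SEG at day 3, Lmo2 in Erg at day 7, and Klf2 and Klf4 in Erg at day 3. In Sox17 those of Gata2 and Klf4 at day 7 and of Gata2, Hhex and Mecom at day 3 ended.

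**Figure D3:**
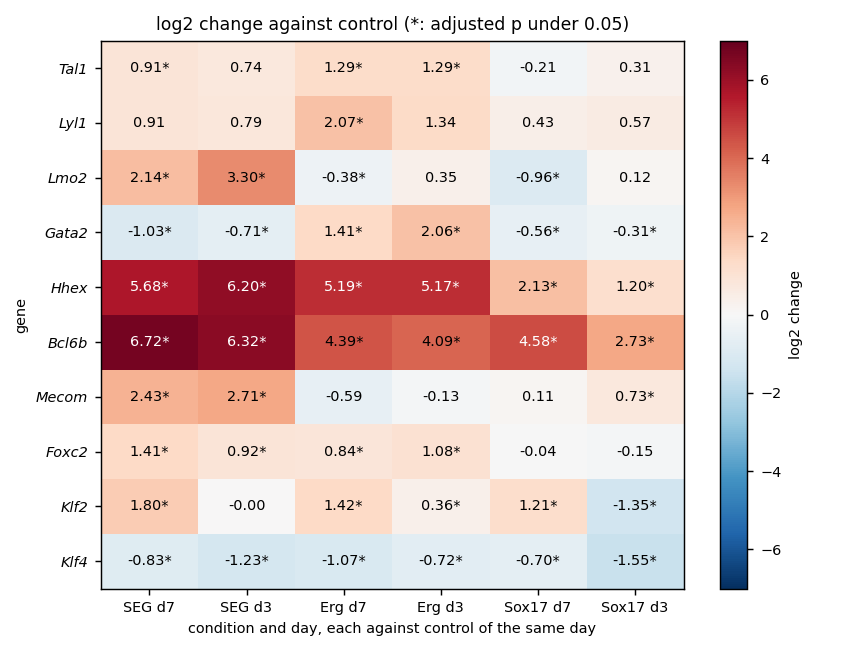
The log2 change of each gene (rows) against control of the same day, for SEG, Erg and Sox17 (columns, day 7 left of day 3). An asterisk marks an adjusted p under 0.05. Hhex and Bcl6b carry the largest changes, up to 6.72, and Gata2 differs in sign between Erg and the other conditions.

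SEG was then set against each single factor condition. Against Erg at day 7, SEG had 6 of the 10 genes higher and 2 lower (49.4% of all genes called, 24.7% higher and 24.8% lower). At day 3, 4 were higher and 3 lower (51% of all genes called, 25.7% higher and 25.3% lower). Mecom was higher by log2 differences of 3.01 ± 0.26 at day 7 and 2.84 ± 0.26 at day 3, Lmo2 by 2.53 ± 0.14 and 2.95 ± 0.15, and Bcl6b by 2.32 ± 0.22 and 2.23 ± 0.22, with adjusted p of at most 3.49e-08. Gata2 was lower, by −2.45 ± 0.12 at day 7 (adjusted p = 8.19e-13) and −2.78 ± 0.11 at day 3 (8.31e-14). Hhex was higher by 1.03 at day 3 (adjusted p = 1.09e-05). At day 7 Hhex was higher by 0.49 (0.0121), a call lost without Erg replicate 2 (0.38, 0.0704) or SEG replicate 1 (0.41, 0.05). Foxc2 was higher at day 7 (0.57, adjusted p = 9.98e-05) and did not pass at day 3 (−0.16, 0.204), where it was called lower with these groups alone in the fit (−0.18, 0.0323). Erg itself was lower in SEG than in the Erg condition, as given above.

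The smaller differences between SEG and Erg depended on libraries. Klf2 was higher at day 7 (0.39, adjusted p = 0.0228), a call lost without Erg replicate 1 (0.34, 0.0859) or 2 (0.355, 0.0712) or SEG replicate 1 (0.23, 0.171), and with these groups alone in the fit (0.37, 0.0616). Without both libraries that stood apart it was 0.22 (adjusted p = 0.0299). At day 3 Klf2 was lower (−0.36, adjusted p = 0.0328), lost without Erg replicate 2 or 3 or any SEG replicate (−0.39 to −0.305 over those 5 fits, smallest adjusted p = 0.0522). Klf4 was lower at day 3 (−0.52, adjusted p = 0.0259), lost without Erg replicate 1 (−0.49, 0.0607) or SEG replicate 2 (−0.48, 0.0771) or 3 (−0.49, 0.0726). Klf4 did not pass at day 7 (0.24, adjusted p = 0.301), and was called higher without both libraries that stood apart (0.27, 0.000238). Lyl1 was lower at day 7 (−1.16, adjusted p = 0.0396), lost without Erg replicate 1 (−1.22, 0.0646) or 3 (−0.95, 0.158) or SEG replicate 2 (−0.91, 0.163) or 3 (−1.26, 0.0703), and without the filter on low counts (−1.16, 0.0704). Beside it, 16 of 18 macrophage markers were lower in SEG and the other 2 did not pass (24.8% of all genes lower). Tal1 did not pass at day 7 (−0.38, adjusted p = 0.259), and was called lower without SEG replicate 2 (−0.73, 0.0427). Tested beyond 1.5-fold, the calls of Lyl1, Hhex, Foxc2 and Klf2 at day 7 and of Klf2 and Klf4 at day 3 ended.

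Against Sox17 at day 7, SEG had 7 of the 10 genes higher and 1 lower (39.9% of all genes called, 18.8% higher and 21.2% lower). At day 3, 6 were higher and 1 lower (28.3% of all genes called, 14% higher and 14.2% lower). Hhex was higher by 3.54 ± 0.18 at day 7 and 5.0 ± 0.20 at day 3, Lmo2 by 3.10 ± 0.14 and 3.19 ± 0.15, and Mecom by 2.32 ± 0.25 and 1.98 ± 0.25, with adjusted p of at most 3.01e-06. Bcl6b was higher by 2.14 and 3.59, Foxc2 by 1.46 and 1.07, and Klf2 by 0.60 and 1.35 (adjusted p of at most 0.00144). Sox17 itself was lower in every SEG library than in every library of the Sox17 condition at day 3, and the libraries overlapped at day 7. Gata2 was lower, by −0.47 at day 7 (adjusted p = 0.00276) and −0.40 at day 3 (0.00869), a day-3 call lost without SEG replicate 3 (−0.30, 0.0725). Klf4 did not pass at day 7 (−0.13, adjusted p = 0.598), and was called lower without Sox17 replicate 1 (−0.43, 6.62e-06) or both libraries that stood apart (−0.39, 1.3e-05), while its sign turned without Sox17 replicate 2 (0.03, 0.931) or 3 (0.07, 0.767). Same-numbered libraries of these groups deviated together at day 7, and with the replicate number as a block within both groups Tal1 (1.12, adjusted p = 0.00345) was not called (1.04, 0.0577), nor was Gata2 (−0.49, 0.0865). With these groups alone and no block, Tal1, Gata2 and Klf2 were not called at day 7 (adjusted p = 0.116, 0.131 and 0.138), and these 3 calls and that of Gata2 at day 3 also ended when tested beyond 1.5-fold.

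A further comparison, chosen after values were seen, set SEG against the sum of the log2 changes of Erg and Sox17. Such a sum stands for a product of fold changes, not for added CPM. A gene below it can still be highest in SEG, as Hhex and Bcl6b were within each day. The factor levels behind that sum differ. At day 3 Erg stood at 1254 to 1281 CPM in SEG and 7039 to 7133 CPM in the Erg condition. Sox17 stood at 955 to 1054 CPM in SEG and 1549 to 1653 CPM in the Sox17 condition. At day 7 Erg was again lower in every SEG library, while the Sox17 libraries overlapped. The part of these levels in the differences was not tested. At day 7, 4 genes were above the sum and 4 below it (48.8% of all genes called, 23.8% higher and 25% lower), and at day 3, 4 were above and 1 below (36% of all genes called, 18.2% higher and 17.8% lower). Lmo2 exceeded the sum by 3.49 ± 0.20 at day 7 and 2.83 ± 0.21 at day 3 (adjusted p = 3.5e-11 and 2.51e-09), and Mecom by 2.90 ± 0.35 and 2.11 ± 0.34 (1.1e-06 and 6.58e-05). Gata2 lay below it, by −1.89 ± 0.16 and −2.47 ± 0.16 (adjusted p = 1.03e-08 and 2.4e-10). Hhex and Bcl6b lay below the sum at day 7 (−1.64 ± 0.34 and −2.26 ± 0.42, adjusted p = 0.0006 and 0.000201) and did not pass at day 3 (−0.17 and −0.50, adjusted p = 0.797 and 0.334). The day-7 values rest on 3 to 4 Hhex counts and 2 to 10 Bcl6b counts per control library. Klf4 lay above it at both days (0.94 and 1.04, adjusted p = 0.00626 and 0.00396), with a day-7 adjusted p of 0.0675 when the groups compared alone were fitted. Klf2 lay below at day 7 (−0.82, adjusted p = 0.00167) and above at day 3 (0.99, 0.000382). Tested beyond 1.5-fold, both Klf4 calls and the day-7 calls of Klf2 and Foxc2 ended. Foxc2 passed at day 7 (0.62, adjusted p = 0.00185) and not at day 3 (−0.01, 0.988).

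**Figure D4:**
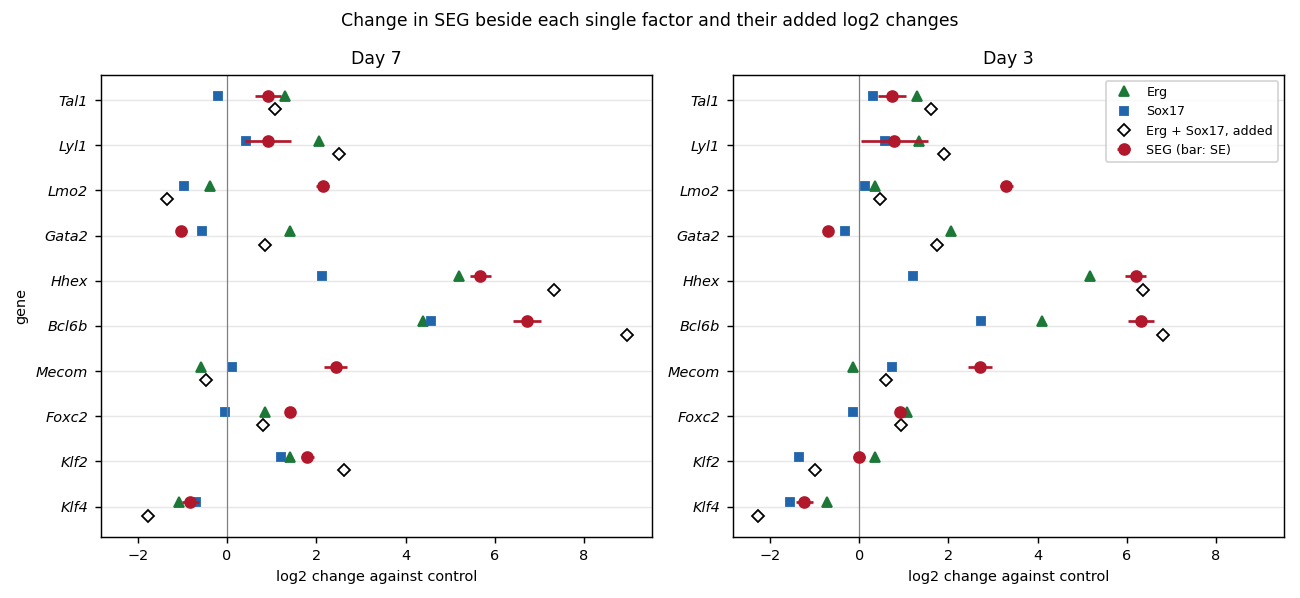
The log2 change against control in SEG (circles, bar: SE), Erg (triangles) and Sox17 (squares), with the added changes of Erg and Sox17 (open diamonds), at day 7 (left) and day 3 (right). For Lmo2 and Mecom the SEG circle lies to the right of all other marks, and for Gata2 to the left of them.

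Between the days, Lmo2 rose and Gata2 fell in every condition, control included. At day 7 against day 3, 3 of the 10 genes were higher and 3 lower in SEG (27.2% of all genes called, 14.3% higher and 12.9% lower), and 2 higher and 5 lower in Erg (30% of all genes called, 15.6% higher and 14.4% lower). In Sox17, 4 were higher and 1 lower (29.5% of all genes called, 16.6% higher and 12.9% lower), and in control 1 was higher and 4 lower (29.5% of all genes called, 16.1% higher and 13.4% lower). Lmo2 rose by 0.96 ± 0.13 in SEG, 1.38 ± 0.15 in Erg, 1.04 ± 0.14 in Sox17 and 2.12 ± 0.15 in control (adjusted p of at most 1.72e-05). Gata2 fell in all 4, by 0.74, 1.07, 0.67 and 0.42 (adjusted p of at most 0.00646), with an adjusted p of 0.0686 in Sox17 when its 2 groups alone were fitted. In control Klf2 fell by 1.53 (adjusted p = 5.92e-08), while it rose by 1.03 in Sox17 (1.18e-05) and fell by 0.47 in Erg (0.0118). The Klf2 call in Erg was lost without Erg replicate 1 of day 7 (−0.42, adjusted p = 0.0541), and SEG did not pass (0.27, 0.154). Klf4 fell in control by 0.64 (adjusted p = 0.0126) and in Erg by 0.99 (0.000429), and did not pass in SEG (−0.23, 0.416) or Sox17 (0.21, 0.398). Without both libraries that stood apart, Klf4 was called lower in SEG (−0.16, 0.0217) and higher in Sox17 (0.54, 6.79e-08).

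Several further calls between days depended on libraries. Bcl6b fell in SEG by 0.79 (adjusted p = 0.00604) and in Erg by 0.89 (0.00411), and Hhex fell in SEG by 0.79 (0.00048). In Sox17 the Bcl6b call (0.66, adjusted p = 0.0284) was lost without any 1 of replicates 1, 2 and 3 of day 3 or replicate 1 of day 7 (0.48 to 0.67 over those fits). Foxc2 fell in Erg by 0.54 (adjusted p = 0.000445), and its control call (−0.30, 0.0354) was lost in all 6 fits that left out a library (−0.32 to −0.27). Tal1 was higher in SEG (0.88, adjusted p = 0.0277), a call lost without replicate 1 (0.78) or 2 (0.83) of day 3 or replicate 2 (0.52) or 3 (0.89) of day 7. In Erg, Tal1 did not pass between days (0.70, adjusted p = 0.061), and was called with the replicate block (0.72, 0.0409), by DESeq2 (0.72, 0.0455) and with these groups alone in the fit (0.71, 0.0145). Tal1 did not pass in control (0.71, 0.121), and was called without control replicate 1 of day 7 (0.93, 0.0475). Lyl1 rose in Erg (2.40 ± 0.50, adjusted p = 0.00105), and its calls in SEG (1.79, 0.0221) and Sox17 (1.53, 0.0401) were each lost in 4 of 6 such fits. In SEG these were the fits without replicate 2 or 3 of day 3 or 1 or 3 of day 7 (Lyl1 at 1.38 to 1.68), and in Sox17 those without replicate 2 or 3 of day 3 or 1 or 2 of day 7 (Lyl1 at 1.02 to 1.56). Hhex in Sox17 (0.67, adjusted p = 0.0531) was called without replicate 1 of day 7 (0.91, 0.00887) or both libraries that stood apart (0.93, 0.00575), and Bcl6b in control (−1.19, 0.0536) with the replicate block (−1.18, 0.0363), by DESeq2 (−1.20, 0.0289), and without replicate 3 of day 3 (−1.37, 0.0452) or replicate 1 of day 7 (−2.00, 0.00412). Foxc2 in Sox17 (−0.19, 0.175) was called without replicate 3 of day 7 (−0.28, 0.0398). Foxc2 in SEG (0.19, adjusted p = 0.184) was called without both libraries that stood apart (0.23, 0.021). Mecom was called in no condition. In control it was called with these groups alone in the fit (0.54, adjusted p = 3.42e-07, against 0.56, 0.0979), and without both libraries that stood apart it was called higher in SEG (0.476, adjusted p = 0.000709) and Sox17 (0.28, 0.046).

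**Figure D5:**
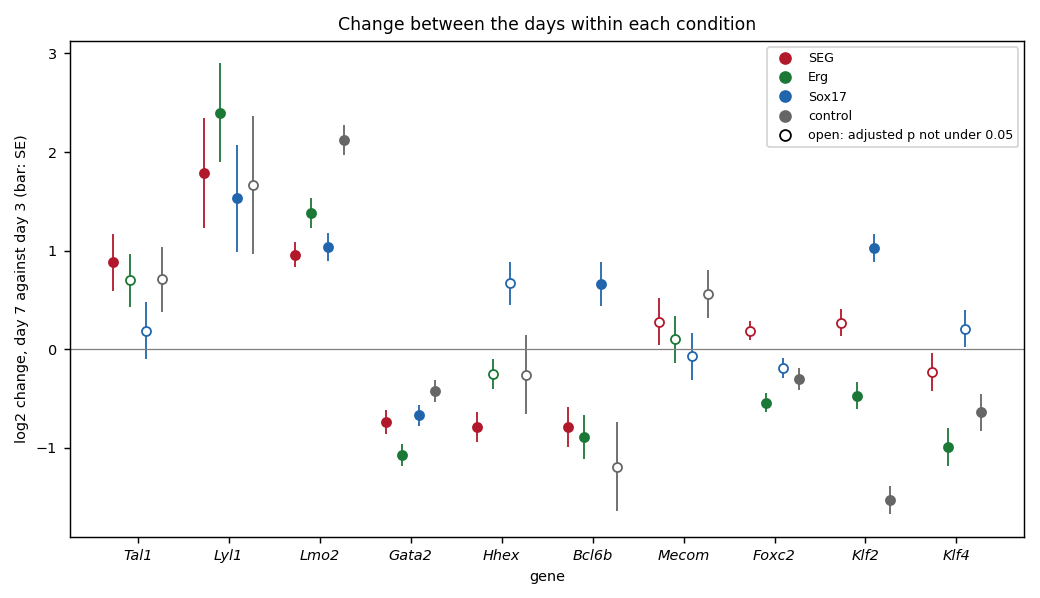
The log2 change at day 7 against day 3 (vertical axis, bar: SE) of each gene in SEG, Erg, Sox17 and control, filled where the adjusted p was under 0.05. Lmo2 lies above 0 and Gata2 below 0 in all 4 conditions, and Klf2 falls by 1.53 in control.

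The change in a condition's effect between the days was tested as an interaction. The effect at day 7 minus that at day 3 was called above 0 for 2 genes and below 0 for 1 in SEG (11.9% of all genes called, 6.09% higher and 5.77% lower). In Erg it was above 0 for 1 gene and below 0 for 2 (19.7% of all genes called, 9.34% higher and 10.4% lower), and in Sox17 above 0 for 3 and below 0 for 1 (14.3% of all genes called, 7.61% higher and 6.66% lower). Klf2 was above 0 in all 3 conditions and Lmo2 below 0 in all 3, while control Klf2 fell and control Lmo2 rose between the days. The Klf4 change of the SEG effect did not pass (0.41, adjusted p = 0.415), and was called without both libraries that stood apart (0.485, 3.36e-05) and with the compared groups alone (0.41, 0.0056).

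The levels of the 10 genes, per kb of merged exons, spanned several orders. At day 7 in SEG the highest mean was that of Lmo2 (33.3 ± 0.646 CPM per kb), followed by Klf2 (32.1 ± 5.68), Mecom (22.1 ± 4.88), Foxc2 (20.5 ± 0.2515) and Klf4 (16.05 ± 0.796). Bcl6b (7.83 ± 1.265 CPM per kb), Hhex (1.65 ± 0.154), Gata2 (0.653 ± 0.0485), Lyl1 (0.362 ± 0.1185) and Tal1 (0.3525 ± 0.149) followed. Lmo2 and Klf2, Mecom and Foxc2, and Lyl1 and Tal1 were neighbours in this order whose means differed by less than the larger of their SDs. In control at day 7 Klf4 led (28.5 ± 0.330 CPM per kb), and Hhex was lowest (0.0316 ± 0.00572).

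The other genes of these pathways moved in both directions. Beside the list counts here and in the paragraphs that follow, 44.3%, 48.5% and 54.5% of all genes were called in SEG, Erg and Sox17 at day 7. At day 3 these shares were 40.2%, 46.1% and 40.4%. Of 8 tested partners of the TAL1 complex, 3 rose and 2 fell in SEG, 1 rose and 3 fell in Erg, and 3 rose and 2 fell in Sox17 at day 7, with medians of −0.02, −0.40 and 0.07. Cbfa2t3, a corepressor of the complex also known as ETO2, led the list with log2 changes of 5.02 ± 0.37 in SEG, 4.63 ± 0.37 in Erg and 2.29 ± 0.40 in Sox17 (adjusted p = 5.7e-10, 2.97e-09 and 6.84e-05). Tcf3, which encodes E proteins, rose by 0.98 in SEG and 0.45 in Sox17 and fell by 0.27 in Erg. Runx1, a blood factor, fell by 0.87 in SEG and rose by 0.84 in Sox17. At day 3, 4 rose and 1 fell in SEG, 1 rose and 2 fell in Erg, and the 4 that passed in Sox17 all rose.

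Of 13 close relatives of the members, 3 rose and 4 fell in SEG, 3 rose and 5 fell in Erg, and 3 rose and 5 fell in Sox17 at day 7. With 44.3%, 48.5% and 54.5% of all genes called there, these counts are not read as particular to the relatives. Klf5 rose by 3.18 ± 0.25 in SEG and 5.80 ± 0.25 in Sox17 (adjusted p = 1.35e-09 and 1.23e-13). Bcl6, the relative of Bcl6b, fell by 2.11 in SEG, 1.09 in Erg and 1.85 in Sox17 (adjusted p of at most 4.24e-06). Gata3 rose by 0.83 in SEG, 1.83 in Erg and 1.51 in Sox17 (adjusted p of at most 1.78e-05). Of 15 tested further endothelial factors outside the ETS and SOX families, 6 rose and 6 fell in SEG, 4 rose and 6 fell in Erg, and 6 rose and 6 fell in Sox17 at day 7. The Notch target Hey1 led them with 8.40 ± 0.23 in SEG, 2.49 ± 0.24 in Erg and 6.44 ± 0.22 in Sox17, while Prox1, a lymphatic regulator, fell by 2.30 in Erg and rose by 1.51 in Sox17.

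Around Klf2 and Klf4, those of 6 genes of the kinase route and the MEF2 factors that were called passed the test downwards at day 7, 1 in SEG, 2 in Erg and 3 in Sox17, and Mapk7, which encodes ERK5, fell by 0.23, 0.27 and 0.66 (adjusted p = 0.0127, 0.00358 and 1.65e-07). At day 3, 1 of the 6 rose in SEG and 2 rose in Erg, with none lower, and 2 fell in Sox17. The list summed to 392 to 429 CPM in SEG, 558.1 to 575 CPM in Erg, 289 to 319 CPM in Sox17 and 349 to 358 CPM in control at day 3. Of 10 endothelial target genes of KLF2 and KLF4, 7 rose and 1 fell in SEG, the 8 that passed in Erg all rose, and 7 rose and 2 fell in Sox17 at day 7. Kdr, the receptor VEGFR2, rose by 7.51 ± 0.38 in SEG, 5.16 ± 0.36 in Erg and 6.84 ± 0.37 in Sox17. Edn1, a vasoconstrictor that KLF2 is known to repress, rose by 4.24 ± 0.15 in SEG and 4.27 ± 0.15 in Sox17 (adjusted p = 7.75e-15 and 7.26e-15). At day 3, 8 of the 10 target genes rose and 1 fell in SEG, and 6 rose and 1 fell in Erg. In Sox17 at day 3, 6 rose and 2 fell, where Klf2 and Klf4 were both lower than control. The part of KLF2 and KLF4 in the target genes was not tested.

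Over the 24 libraries, and as a description of points that share groups and depth, log2 CPM of Hhex ran with that of Foxc2 (Pearson r = 0.9) and Bcl6b (0.879), and Lmo2 with Mecom (0.839), while Gata2 ran against Mecom (−0.661). Among all tested genes with a symbol, the one most like Lmo2 was Chrdl1 (0.936), most like Mecom Slc45a4 (0.957), and most like Gata2 Eci2 (0.962). Ltb was most like Hhex (0.969), Hbegf most like Bcl6b (0.965), and Adamts14 most like Foxc2 (0.946). Tob2 was most like Klf4 (0.918), Kank4 most like Tal1 (0.901), and Tmem109 most like Klf2 (0.867).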

How the data were processed

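Messenger RNA libraries of 24 mouse heart fibroblast samples were analysed from the deposited table of counts per gene, which holds whole numbers. Salmon, DESeq2 and the build mm10 are named in the submitters' processing notes. Their versions, the strand setting and any rounding of estimates were not given in the sources used here. Genes were filtered with filterByExpr (minimum count 10), scaled by TMM and fitted as 8 group means with edgeR 4.0.16 (limma 3.58.1, R 4.3.3) by the quasi-likelihood test with 16 residual degrees of freedom. P-values were adjusted by Benjamini-Hochberg over 14804 genes, with a threshold of 0.05, in each of 19 comparisons. SEs are the absolute log2 change divided by the square root of F. They follow from the test, and can be too small where a group holds few counts. Coordinates are from GENCODE on mm10. The fit was tested on simulated data, whose outcome is not given here. No libraries were duplicates. The 10 genes and all lists were chosen with earlier results of these data known. Each member was named in every group, and of each other list up to 4 called genes with the largest change. Same-numbered libraries deviated together (every correlation over 0.1) in 1 of 28 pairs of groups, Sox17 and SEG at day 7. Alternatives were RLE scaling, no filter, a replicate block, a test beyond 1.5-fold, a fit of the compared groups alone, DESeq2 1.42.0, and leaving out each library or both that stood apart. SEG against the summed effects, and the block within both groups, were added after the data were seen.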

Additional observations from a re-analysis of the deposited data

Results flagged for a closer look

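For 10 results the effect of a condition against control differed between the days by an interaction test over all genes (edgeR quasi-likelihood test, n = 3 libraries a group), given as the log2 effect at day 7 minus that at day 3. The Klf2 effect differed by 1.80 in SEG (adjusted p = 2.31e-06), by 1.06 in Erg (0.000519) and by 2.56 in Sox17 (3.18e-08). In Sox17 the Klf2 effect changed sign, from −1.35 at day 3 to 1.21 at day 7. The Lmo2 effect differed by −1.16 in SEG (adjusted p = 0.000428), −0.74 in Erg (0.0154) and −1.07 in Sox17 (0.00113). The Erg call for Lmo2 was lost without control replicate 1 of day 3 (−0.57, 0.0501). The Gata2 effect of Erg differed by −0.65 (adjusted p = 0.00442).

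The Foxc2 effect of SEG was larger by 0.50 (adjusted p = 0.0308). That call was lost without control replicate 1 or 3 of day 3, control replicate 1 or 2 of day 7, SEG replicate 2 or 3 of day 3 or SEG replicate 2 or 3 of day 7 (0.46 to 0.51). The Bcl6b effect of Sox17 was larger by 1.85 (adjusted p = 0.0162), lost without control replicate 1 of day 3 (1.46, 0.0907) or control replicate 2 (1.73, 0.0529) or 3 (1.37, 0.0631) of day 7. The Klf4 effect of Sox17 differed by 0.85 (adjusted p = 0.034), as the fall against control was smaller at day 7 (−0.7) than at day 3 (−1.55). That call was lost without any single one of the 12 libraries compared other than Sox17 replicate 1 of day 7 (0.68 to 0.86). Without both libraries that stood apart the difference was 1.19 (8.83e-11). The 3 comparisons of a day share its control libraries.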

How the results depend on the processing

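Of 190 log2 changes of the 10 genes, 120 were called, and 73 of these kept their call under every alternative and 98 under every left-out library. RLE scaling, the replicate block on all libraries and DESeq2 ended 0 of 120 calls, no filter ended 5, a test beyond 1.5-fold 47, a fit of the compared groups alone 14 of 119, and leaving out both libraries that stood apart 1 of 57. RLE scaling called Hhex in Sox17 between days (0.70, adjusted p = 0.0436). The test beyond 1.5-fold called 3164, 2580, 3167, 3090, 3968 and 2863 genes in all for SEG, Erg and Sox17 against control (day 7, then day 3, of each). It called 3550 and 3595 for SEG against Erg, 2344 and 1530 for SEG against Sox17, and 3833 and 2534 for SEG against the summed effects. Between days it called 1253, 1234, 1023 and 1308 in SEG, Erg, Sox17 and control, and 502, 814 and 638 for the change of the SEG, Erg and Sox17 effects. Of the 10 genes it called 3 for Sox17 against control at day 3, 4, 5 and 5 at day 7 for SEG against Erg, Sox17 and the summed effects, 1, 3, 2 and 2 between days in SEG, Erg, Sox17 and control, and 0 and 1 for the change of the Erg and Sox17 effects. The 0 is a count by glmTreat of edgeR, where 1 gene had an unadjusted p under 0.05, and the main test and DESeq2 called 3.

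With the compared groups alone in the fit, all genes called numbered 4314 for Sox17 against control at day 7, 2174 and 6570 for SEG against Sox17 at day 7 and day 3, and 8265 for SEG against the summed effects at day 3. They numbered 7058, 857 and 7856 between days in Erg, Sox17 and control, and 2746, 6442 and 1129 for the change of the SEG, Erg and Sox17 effects. The 10 genes then gave 5 calls for SEG against Sox17 at day 7, 2 between days in Sox17, and 5 and 2 for the change of the Erg and Sox17 effects. The replicate block within SEG and Sox17 at day 7 gave 3881 calls, against 5910, and ended 2 of 8 calls of the 10 genes. Without both libraries that stood apart, 6761 genes were called between days in SEG, and 3774 and 3695 for the change of the SEG and Sox17 effects. Leaving out 1 library gave 2 to 4 of the 10 genes, and 1592 to 3199 of all, for the change of the Sox17 effect, and 3 to 6 of the 10 between days in Sox17. The cause was not tested. Over all 24 libraries, those of Sox17 and SEG at day 7 included, 9 correlated best with their own number. In the other pairs of groups same-numbered libraries did not all deviate together, which cannot tell whether they shared a culture, animal or batch. The block on all libraries ended no call and gained 2, Bcl6b in control (−1.18, adjusted p = 0.0363) and Tal1 in Erg (0.72, 0.0409), both between days. With the compared groups alone, further calls were gained by Klf4 in SEG against Sox17 at day 3 (0.31, 0.00227), by Klf4 (−0.32, 0.0018) and Mecom (−0.43, 0.00463) in the change of the Erg effect, and by Lyl1 in SEG against the summed effects at day 7 (−1.64, 0.032; by DESeq2 −1.64, 0.039). Calls lost there were, between days, Tal1 (0.89, 0.107) and Lyl1 (1.81, 0.0566) in SEG and Bcl6b (0.66, 0.117) and Lyl1 (1.54, 0.252) in Sox17, and in the change of the Sox17 effect Bcl6b (1.82, 0.114) and Klf4 (0.825, 0.187). Lyl1 in Sox17 between days was also lost with no filter (1.54, 0.0629) and without both libraries that stood apart (1.40, 0.0719), and Foxc2 in control with no filter (−0.32, 0.0505).

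None of the changes of sign fell on a called result, by any alternative or left-out library. Other settings turned the sign of Tal1 in the change of the Erg effect (0.00299 with RLE, 0.016 with no filter, 0.0356 with the replicate block, 0.0107 with the compared groups alone), Foxc2 in Sox17 against control at day 7 (0.0151 with no filter, 0.125 without both libraries that stood apart), Klf2 in SEG against control at day 3 (0.0144 with no filter), Mecom in Sox17 between days (0.278 without both libraries that stood apart), Lyl1 in the change of the SEG effect (−0.0212 without both libraries that stood apart). Signs also turned without single libraries. For Sox17 against control at day 3 this gave −0.213 to 1.08 for Lyl1, −0.0515 to 0.363 for Lmo2. For SEG against control at day 3 this gave −0.146 to 1.24 for Lyl1, −0.0643 to 0.0742 for Klf2. For control between days this gave −0.588 to 0.0021 for Hhex. For the change of the Erg effect this gave −0.231 to 0.162 for Tal1, −0.254 to 0.336 for Hhex, −0.178 to 1.11 for Bcl6b. For the change of the Sox17 effect this gave −0.651 to 0.637 for Lyl1. For the change of the SEG effect this gave −0.183 to 0.467 for Tal1, −0.332 to 1.06 for Lyl1, −0.0847 to 1.2 for Bcl6b. For SEG against the summed effects at day 3 this gave −0.436 to 0.154 for Hhex, −0.087 to 0.0618 for Foxc2. For Sox17 against control at day 7 this gave −0.0796 to 0.44 for Mecom, −0.105 to 0.0906 for Foxc2. For SEG against the summed effects at day 7 this gave −0.521 to 0.0581 for Tal1. For SEG against Sox17 at day 3 this gave −0.715 to 1.01 for Lyl1. For Sox17 between days this gave −0.284 to 0.26 for Mecom. For SEG against Sox17 at day 7 this gave −0.434 to 0.0716 for Klf4. Depth limits Lyl1, Tal1 and control Hhex and Bcl6b, which rest on few counts.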
